A study of Homo sapiens with 38 samples.

Results

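Palbociclib and Abemaciclib, both inhibitors of CDK4 and CDK6, were compared directly with each other in 2 genome-wide CRISPR/Cas9 knockout screens, without the vehicle group as a common yardstick. The members were chosen by their labels: 2 libraries of Palbociclib and 2 of Abemaciclib in each of the HCC cell lines Hep3B and SNU-398, 8 of the 38 samples in the series. Both lines expressed Cas9 stably, received the TKOv3 sgRNA library and went through puromycin selection, and each screen had 8 groups kept at about 1000-fold coverage of the library. The T0 group gives the guides before treatment, the T1 group is taken here as the vehicle control, and each remaining group had 14 days of an inhibitor at its IC20. The inhibitors were therefore matched by time and by nominal IC20, and the sources used here give no molar doses. There was 1 pair of compounds in each line, 2 comparisons in all. Each screen measured how many sequencing reads each sgRNA (guide) left in the surviving cells, so a guide with fewer counts under one inhibitor marked a knockout that was lost more, or expanded less, under that inhibitor.

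CDK4 and CDK6 bind D-type cyclins and phosphorylate RB1, which frees E2F transcription factors and lets cells enter S phase, while the INK4 proteins block these kinases. Palbociclib has a pyridopyrimidinone core with a cyclopentyl and an acetyl group, whereas Abemaciclib links a pyrimidine to a fluorinated benzimidazole and carries an ethylpiperazinyl-methyl group. Abemaciclib is known to bind more kinases than Palbociclib, among them CDK9 and members of the GSK3, CAMK2, PIM, HIPK and DYRK families. Hep3B is known to lack functional RB1 and p53.

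Counts were listed for 66890 guides (18003 genes) in Hep3B and 66582 guides (18010 genes) in SNU-398, and 17999 genes were in both. Totals ran from 11198022 to 24284778 counts in the inhibitor libraries of Hep3B and from 14647192 to 24810420 in those of SNU-398. In Hep3B, 49.6% and 52.4% of guides had no count under Abemaciclib, and 49.1% and 49.5% had none under Palbociclib. In SNU-398, Abemaciclib left 22.5% and 25.9% of guides at 0, and Palbociclib left 35.9% and 37.4%, against 25.3% and 29.3% in vehicle. More guides were thus absent in both SNU-398 libraries of Palbociclib than in either library of Abemaciclib, and this stayed so at a common depth, where 62.6% and 63.6% of guides were seen under Palbociclib and 74.0% and 76.1% under Abemaciclib. On halved counts, the 2 libraries of each group differed by little more than counting noise, with a chi-square per guide of 1.28 to 1.45. On the counts as deposited, which the main fits used, it was 2.55 to 2.85. No source says that the 2 libraries came from separate cultures, so the p-values below rest on a spread that may be technical. Of 286 shared guides that only the Hep3B vehicle kept, 65.7% and 50.7% were seen in the SNU-398 libraries of Abemaciclib and 14.3% and 12.6% in those of Palbociclib. For comparison, the Hep3B libraries of Abemaciclib held 55.2% and 49.7% of these guides, and those of Palbociclib 64.3% and 62.2%. The SNU-398 libraries of Abemaciclib thus held them about as often as the Hep3B libraries of the same inhibitor. The part of these guides in the results of SNU-398 was not tested.

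The guides that cut nothing in the human genome moved between the inhibitors about as far as the guides that target genes. Among guides with a mean of at least 30 counts, the log2 difference, Palbociclib minus Abemaciclib, had an SD of 0.96 over 51 control guides (LacZ, luciferase and EGFP) in Hep3B, of 1.22 over 440 olfactory receptor guides and of 1.15 over 24037 guides of all other genes. In SNU-398 these SDs were 0.72 over 64 control guides, 0.55 over 513 olfactory receptor guides and 0.58 over 29032 others. Between the 2 libraries of one inhibitor, the control guides had an SD of 0.26 to 0.28 in Hep3B. In SNU-398 the same SD was 0.28 under Abemaciclib and 0.33 under Palbociclib. In the test of single guides by edgeR's quasi-likelihood test at an adjusted p under 0.05, 41 of 84 control guides (48.8%) were called in Hep3B, against 53.3% of olfactory receptor guides and 53.2% of the guides of all other genes. In SNU-398, 39 of 116 control guides (33.6%) were called, against 31.6% of olfactory receptor guides and 32.3% of the others. Of the called control guides of Hep3B, 28 (33.3% of those tested) were lower and 13 (15.5%) higher under Palbociclib, and of those of SNU-398, 20 (17.2%) were lower and 19 (16.4%) higher. A call by that test was therefore about as frequent for a guide without a target as for one with a target.

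**Figure D1:**
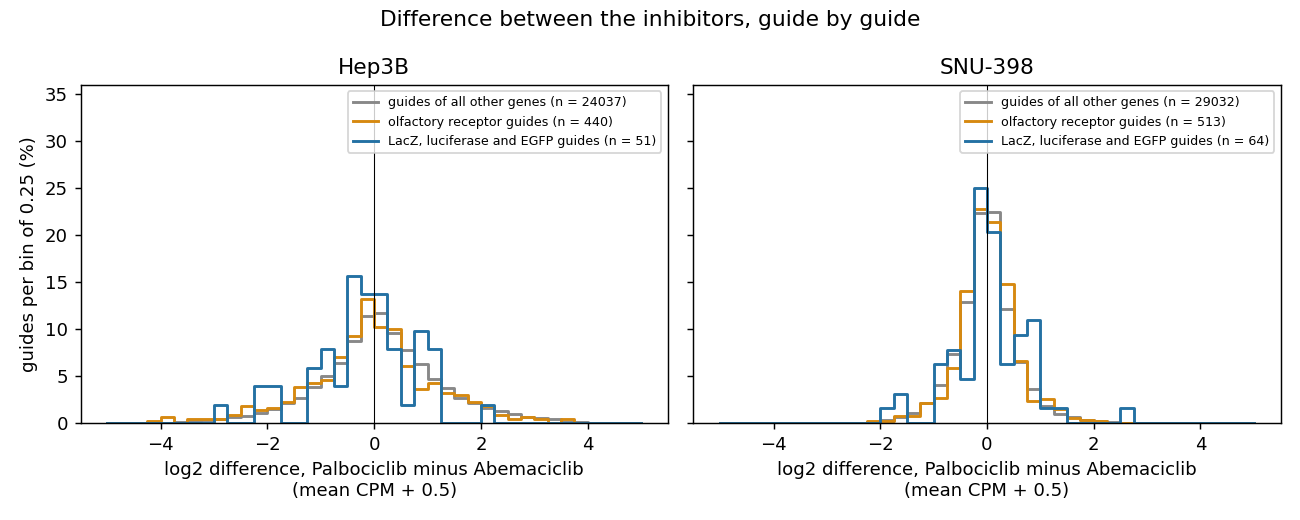
Distribution of the log2 difference between Palbociclib and Abemaciclib over guides with a mean of at least 30 counts (x axis, log2 of mean CPM + 0.5; y axis, percent of the guides of a class per bin of 0.25). In Hep3B and in SNU-398, control guides, olfactory receptor guides and guides of all other genes spread over similar ranges, and the spread is wider in Hep3B (SD 1.15 over the guides of all other genes) than in SNU-398 (SD 0.58).

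Summed per gene, the same test called 12056 of 17826 genes (67.6%) in Hep3B, 6137 of them (34.4%) lower and 5919 (33.2%) higher under Palbociclib. In SNU-398 it called 7185 of 17970 genes (40%), 3734 lower (20.8%) and 3451 higher (19.2%). With scaling on the olfactory receptor genes, the split was 5268 lower and 6652 higher in Hep3B and 3959 and 3122 in SNU-398. Olfactory receptor genes, which hepatic cells are not known to need, were called at 68.4% of 332 in Hep3B and 39.3% of 338 in SNU-398. NormZ, the DrugZ score that adds the guides of a gene and weighs them against the spread of guides of like abundance, put 341 genes (1.89%) past a two-sided p of 0.01 in Hep3B, 228 lower (1.27%) and 113 higher (0.628%), and 262 genes (1.45%) in SNU-398, 147 lower (0.816%) and 115 higher (0.639%). A gene is called supported here when edgeR called it, NormZ passed 0.01 in the same direction, and at least 2 of its guides were called that way and none the other way. There were 178 supported genes lower (0.999%) and 100 higher (0.561%) in Hep3B, 1.56% of genes tested in all, and 122 lower (0.679%) and 95 higher (0.529%) in SNU-398, 1.21% in all. Among olfactory receptor genes 2.41% were supported in Hep3B and 2.37% in SNU-398.

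The guides of one gene did not move together between the inhibitors. Across 7540 genes of Hep3B, the log2 differences of the 2 most abundant guides of a gene had a Pearson r of 0.0059 (Spearman rho 0.0017) and shared a sign in 50.4% of genes. Across 9726 genes of SNU-398, r was -0.0074 (rho -0.0057) and 50.3% shared a sign. For the change since T0, the 2 guides most abundant at T0 had an r of 0.041 under Abemaciclib and 0.056 under Palbociclib over 11409 genes of Hep3B, and of 0.052 and 0.042 over 11718 genes of SNU-398. These correlations run over genes of the same libraries, which are not independent replicates. This comparison of guides, and the range of the control guides used below, were chosen after the values were seen.

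Nor did these differences resemble each other between the lines. Over 17809 genes tested in both, the log2 differences had an r of -0.0081 (rho 0.0004) and the same sign in 48.7% of genes, and NormZ had an r of -0.0024 with 50.1% of signs shared. The test called 4881 genes (27.4%) in both lines, 2341 (13.1%) in the same direction and 2540 (14.3%) in opposite directions. A joint fit of both lines found that the difference between the inhibitors itself differed between Hep3B and SNU-398 for 10898 of 17979 genes (60.6%).

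In Hep3B, the supported genes with the largest NormZ and fewer counts under Palbociclib than under Abemaciclib were NAPRT1, UBE2C, KLHL9, POFUT1, RIIAD1 and GK2. Levels are given as CPM, the summed counts of a gene's guides scaled to the library total, with the values of libraries 1 and 2 in that order, and differences are log2 values from edgeR, Palbociclib minus Abemaciclib, ± SE. NAPRT1, which starts NAD synthesis from nicotinic acid, had 89.2 and 82.6 CPM under Abemaciclib and 11.6 and 10.5 under Palbociclib, against 7.82 and 9.09 in vehicle. Both Abemaciclib libraries stood far above the vehicle and Palbociclib libraries, and the log2 difference was -3.06 ± 0.13 (SE, NormZ -7.35, edgeR adjusted p = 1.8e-116), with 3 of 3 tested guides lower. UBE2C, the ubiquitin-conjugating enzyme of the anaphase-promoting complex, had 194 and 184 CPM under Abemaciclib, 44.9 and 48.5 under Palbociclib and 33.1 and 34.2 in vehicle. Its log2 difference was -2.14 ± 0.07 (NormZ -5.38, edgeR adjusted p = 9.6e-193), from 2 of 3 tested guides. KLHL9, a substrate adaptor of CUL3 ubiquitin ligases, had 189.9 and 200.2 CPM under Abemaciclib and 77.2 and 77.5 under Palbociclib, and 41.5 and 41.7 in vehicle. All 4 of its guides were lower under Palbociclib, with log2 differences of -0.58, -2.32, -2.23 and -1.11, and the gene stood at -1.44 ± 0.06 (NormZ -5.28, edgeR adjusted p = 9.9e-138). In SNU-398 the KLHL9 difference was 0.07 (95% CI -0.10 to 0.25, edgeR adjusted p = 0.53).

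The other genes of this group followed the same pattern of levels. POFUT1, which adds fucose to Notch receptors, had 88.7 and 91.3 CPM under Abemaciclib, 21.1 and 23.4 under Palbociclib and 29.7 and 31.7 in vehicle, a log2 difference of -2.14 ± 0.11. RIIAD1 had 184 and 176 CPM under Abemaciclib, 56.7 and 48.7 under Palbociclib and 28.9 and 28.9 in vehicle (-1.87 ± 0.07). GK2, a glycerol kinase, had 112 and 119 CPM, then 38.3 and 39.5, then 41.4 and 42.8 in these groups (-1.68 ± 0.08). In all 6 genes both Abemaciclib libraries were above every vehicle and Palbociclib library. In SNU-398 the inhibitors lay closer together for these genes: UBE2C was lower under Palbociclib (-0.39 ± 0.10, edgeR adjusted p = 0.001), GK2 was higher (0.31 ± 0.07, adjusted p = 5.9e-04), and NAPRT1, POFUT1 and RIIAD1 did not pass the test (95% CI -0.53 to 0.17, -0.18 to 0.23 and -0.42 to 0.08).

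On the Abemaciclib-depleted side of Hep3B stood DDX21, GSDMA, RALYL, TMEM126B, SSTR2 and OTUD1. DDX21, a nucleolar RNA helicase of ribosome synthesis, had 1.32 and 0.309 CPM under Abemaciclib, 18.6 and 15.7 under Palbociclib and 8.63 and 9.09 in vehicle. Its 3 tested guides were all higher under Palbociclib, with a log2 difference of 4.07 ± 0.27 (NormZ 4.15, edgeR adjusted p = 1.2e-48). In SNU-398 the same gene was lower under Palbociclib (-0.94 ± 0.23, edgeR adjusted p = 0.001). TMEM126B, an assembly factor of respiratory complex I, had 4.94 and 2.71 CPM under Abemaciclib, 29.9 and 30.01 under Palbociclib and 20.4 and 16.9 in vehicle (2.76 ± 0.15). GSDMA, a pore-forming gasdermin, had 1.65 and 1.24 CPM, then 14.99 and 14.1, then 21.7 and 24.97, in that order of groups, and RALYL, an RNA-binding protein, had 2.47 and 2.17 CPM, then 19.96 and 19.8, then 18 and 13.7. In these 4 genes both Abemaciclib libraries lay far below every Palbociclib and vehicle library. OTUD1, a deubiquitinase, had 28.7 and 30.9 CPM under Abemaciclib, 123 and 119 under Palbociclib and 64.8 and 67.96 in vehicle (1.92 ± 0.07). SSTR2, a somatostatin receptor, was the best counted of them at 250.3 and 245 CPM under Abemaciclib and 369 and 376 under Palbociclib, and all 4 of its guides were higher (0.47 ± 0.04, NormZ 3.98).

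**Figure D2:**
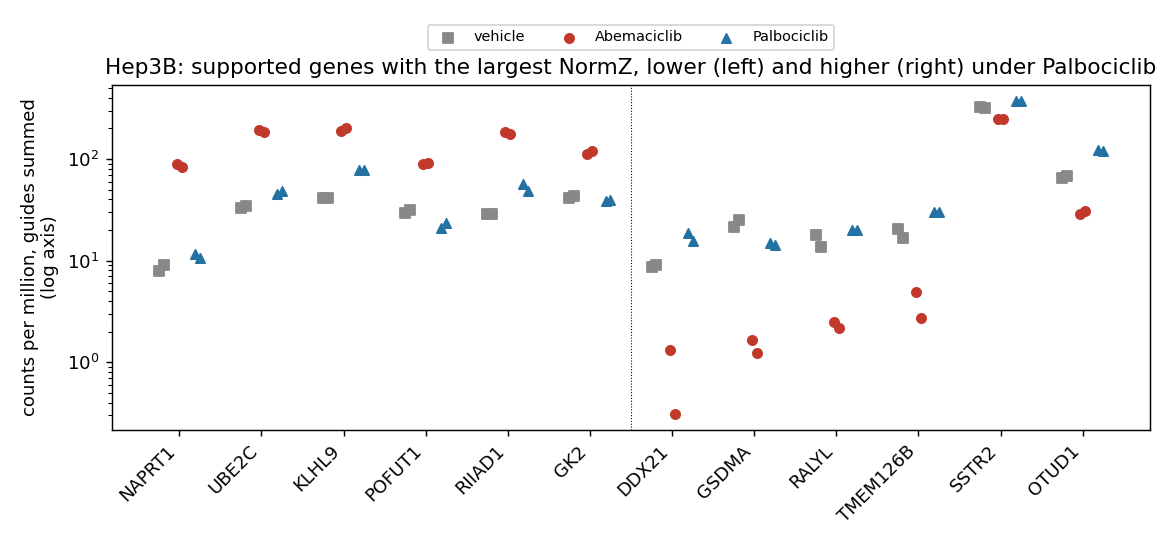
CPM of the summed guides of the 12 genes in Hep3B (y axis, log scale; 2 points per group, 1 per library) under vehicle, Abemaciclib and Palbociclib. Left of the dotted line the Abemaciclib libraries lie above both other groups for all 6 genes, from 82.6 to 200.2 CPM, and right of it they lie below both other groups.

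In SNU-398, the leading genes depleted under Palbociclib were EZH1, FBXL18, MON2, BEST1, ING1 and CSRP2BP. EZH1, a methyltransferase of the Polycomb repressive complex, had 64.9 and 67.5 CPM under Palbociclib, 99.7 and 93.7 under Abemaciclib and 91.4 and 94.9 in vehicle. Its log2 difference was -0.53 ± 0.06 (NormZ -4.98, edgeR adjusted p = 6.1e-10), with 3 of 4 guides lower. In Hep3B it went the other way, with 138 and 129 CPM under Palbociclib and 66.7 and 67.4 under Abemaciclib (0.89 ± 0.06, adjusted p = 1.8e-51). FBXL18, an F-box protein, had 102 and 105 CPM under Palbociclib and 154 and 161 under Abemaciclib, with 3 of 3 guides lower (-0.59 ± 0.05), and it too was higher under Palbociclib in Hep3B (0.33 ± 0.05). MON2, which acts in traffic between Golgi and endosomes, had 13.1 and 13.7 CPM under Palbociclib and 30.1 and 28.2 under Abemaciclib (-1.11 ± 0.11). BEST1, a chloride channel, had 11.9 and 9.29 CPM under Palbociclib and 24.3 and 21.4 under Abemaciclib, and 4 of 4 guides were lower (-1.08 ± 0.12). ING1, a chromatin reader, had 46.6 and 47.4 CPM under Palbociclib and 77.5 and 71.1 under Abemaciclib (-0.65 ± 0.07). CSRP2BP, a histone acetyltransferase subunit, showed a small difference in abundant guides, 1002 and 1023 CPM under Palbociclib and 1132 and 1233 under Abemaciclib, with 4 of 4 guides lower (-0.20 ± 0.03). In these 6 genes the Palbociclib libraries lay below both vehicle libraries and both Abemaciclib libraries.

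The leading genes of SNU-398 with fewer counts under Abemaciclib than under Palbociclib were NPR3, PLGRKT, VPS54, ATP6V1H, MISP and GOLGA4. NPR3, the clearance receptor of natriuretic peptides, had 107 and 109 CPM under Abemaciclib, 152 and 154 under Palbociclib and 139 and 141 in vehicle (0.53 ± 0.05, NormZ 4.41, edgeR adjusted p = 2.4e-12). PLGRKT, a plasminogen receptor, had 32.97 and 30.6 CPM under Abemaciclib and 58.1 and 62.2 under Palbociclib, and 4 of 4 guides were higher (0.93 ± 0.08, NormZ 4.13). ATP6V1H, a subunit of the proton pump that acidifies lysosomes, had 197 and 195 CPM under Abemaciclib against 260.2 and 265 under Palbociclib and 288 and 285 in vehicle (0.44 ± 0.04). In Hep3B it was slightly lower under Palbociclib (-0.23 ± 0.04). VPS54, of the tethering machinery of the trans-Golgi network, had 238 and 247 CPM under Abemaciclib and 279.6 and 274 under Palbociclib (0.21 ± 0.04). GOLGA4, another tether there, had 12.3 and 11.8 CPM under Abemaciclib and 23.6 and 22.9 under Palbociclib (0.97 ± 0.14). MISP, which positions the mitotic spindle, had 49.4 and 45.98 CPM under Abemaciclib and 93.2 and 95.9 under Palbociclib (1.002 ± 0.07), but without its most abundant guide the difference no longer passed (0.79, adjusted p = 0.084).

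**Figure D3:**
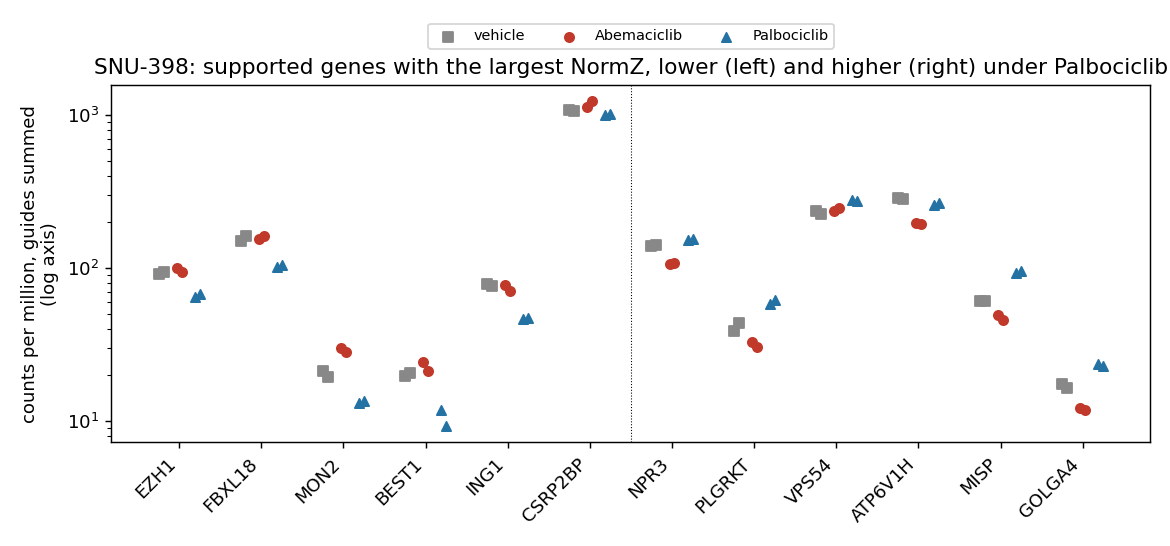
CPM of the summed guides of the 12 genes in SNU-398 (y axis, log scale; 2 points per group, 1 per library) under vehicle, Abemaciclib and Palbociclib. The 6 genes on the left are lowest in both Palbociclib libraries, and on the right Palbociclib is above Abemaciclib in every gene, with the smallest gap for VPS54 (log2 difference 0.21).

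Genes were also set against the range of the control guides. In Hep3B, 319 of 7540 genes with at least 2 well-counted guides (4.23%) had 2 or more guides beyond the 5th to 95th percentile of the control guides (-1.99 to 1.16) on one side and none on the other, 26 lower and 293 higher, against 3.25% of 123 olfactory receptor genes. These uneven bounds came from 51 control guides, whereas the same percentiles of the guides of all other genes were -1.77 and 2.13. The numbers of lower and higher genes can therefore not be compared with each other. KLHL9, NAPRT1 and POFUT1 were among the lower genes. They had been named above from the same guides and libraries, so this is not separate support. Beyond the most extreme control guides (-2.92 to 2.11) stood 1 gene lower, CNOT11, and 37 higher, among them DDX21, TMEM126B and CCND1. Together these were 0.504% of the 7540 genes, against 0 of 123 olfactory receptor genes. Each of these uneven bounds is 1 control guide, so the lower and higher numbers can again not be compared. DDX21 and TMEM126B were likewise named above from these libraries. CCND1 also had guides that edgeR called lower (-2.35 and -3.68). In SNU-398, 104 of 9726 genes (1.07%) passed the percentile rule, 41 lower and 63 higher, against 1.85% of 162 olfactory receptor genes, and 0 genes passed the extremes (-1.86 to 2.64).

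A single gene, TPD52L3, was supported in the same direction in both lines (0.00562% of the genes tested in both). It had 39.5 and 33.6 CPM under Abemaciclib and 17.3 and 13.2 under Palbociclib in Hep3B, and 40.6 and 36.8 under Abemaciclib and 28.6 and 25.4 under Palbociclib in SNU-398, with log2 differences of -1.36 ± 0.12 and -0.50 ± 0.09. Without Palbociclib replicate 2 of SNU-398, 0 genes were supported in both lines in one direction. By a weaker rule (supported in one line, called in both, and NormZ p under 0.05 in both), 18 genes went the same way, 7 lower and 11 higher under Palbociclib, and 14 went opposite ways. Both counts are out of the 17809 genes tested in both lines, of which 50.1% shared the sign of NormZ. PLGRKT was one of the 18, and in Hep3B it had 25.4 and 24.5 CPM under Abemaciclib and 58.1 and 57.8 under Palbociclib (1.10 ± 0.09, NormZ 2.31). Its difference between the lines was 0.19 (edgeR adjusted p = 0.16 in the joint fit). TRUB2, a pseudouridine synthase of mitochondria, had 7.66 and 7.97 CPM under Abemaciclib and 29.8 and 24.6 under Palbociclib in Hep3B, and 15.2 and 13.2 under Abemaciclib and 30.6 and 33.9 under Palbociclib in SNU-398 (1.70 and 1.19). TMEM236 and TM9SF1 were also higher under Palbociclib in both lines, by 1.09 and 1.25 in Hep3B and by 0.32 and 0.34 in SNU-398.

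Lower under Palbociclib in both lines were EIF5A2, a translation factor, and PAX8, a transcription factor. EIF5A2 had 16.6 and 19.6 CPM under Abemaciclib and 5.91 and 7.86 under Palbociclib in Hep3B, and 14.9 and 12.7 under Abemaciclib and 6.82 and 6.69 under Palbociclib in SNU-398 (-1.53 ± 0.16 and -1.02 ± 0.15). For PAX8 the log2 differences were -1.16 ± 0.11 and -0.66 ± 0.11, with 4 of 4 guides lower in Hep3B and 2 of 4 in SNU-398. FIGF, a lymphatic growth factor, was lower in both lines as well (-0.74 and -0.32), with 3 of 4 guides lower in each. C11orf16 stood at -1.51 and -0.70. TOM1L2, an endosomal sorting protein, stood at -1.78 and -0.67, but in Hep3B the difference came from 1 guide and was 0.16 without the most abundant one.

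Opposite in the lines were C2orf81, OR5H14, RC3H2, DMBT1, OR51G2 and CTR9, and OR5H14 and DMBT1 were supported in both (0.0112% of the genes tested in both). Without either Abemaciclib library or Palbociclib replicate 1 of SNU-398, 1 gene was. DMBT1, a secreted mucosal glycoprotein, had 9.72 and 8.35 CPM under Abemaciclib and 39.8 and 37.4 under Palbociclib in Hep3B, but 12.2 and 13.05 under Abemaciclib and 4.46 and 3.69 under Palbociclib in SNU-398. The log2 differences were 1.96 ± 0.13 and -1.59 ± 0.18, which differed by 3.58 between the lines (edgeR adjusted p = 1.8e-28). OR5H14 and OR51G2 are olfactory receptor genes, and they were lower under Palbociclib in Hep3B (-1.17 and -0.70) and higher in SNU-398 (0.42 and 0.61). For OR51G2 in Hep3B, 2 guides were lower and 1 was higher (0.53), and without its most abundant guide the value was 0.037. CTR9, a subunit of the PAF1 transcription elongation complex, had 39.8 and 43.2 CPM under Abemaciclib and 10.1 and 8.75 under Palbociclib in Hep3B, and 24.7 and 22.7 under Abemaciclib and 40.9 and 44.2 under Palbociclib in SNU-398 (-2.23 and 0.86). RC3H2, an RNA-binding protein that destabilises mRNAs, stood at -0.81 and 0.35, and C2orf81 at 2.46 and -0.89. For C2orf81 the SNU-398 difference was -0.23 without its most abundant guide and did not pass (adjusted p = 0.23).

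**Figure D4:**
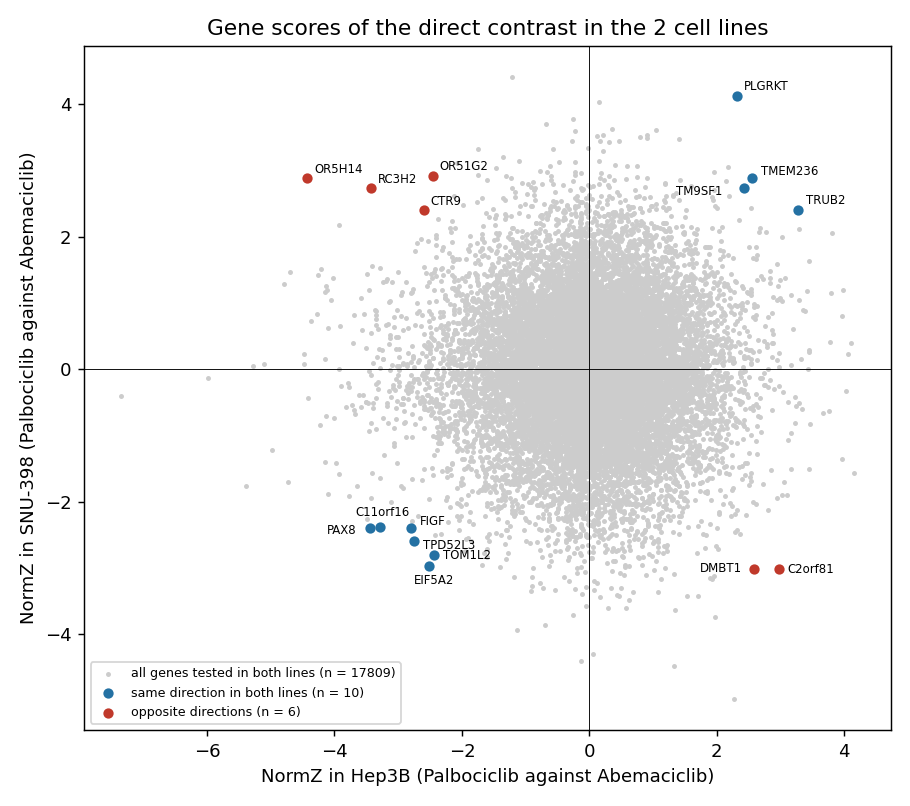
NormZ of each of 17809 genes in Hep3B (x axis) and in SNU-398 (y axis) for Palbociclib against Abemaciclib, where negative values mean fewer counts under Palbociclib. The cloud shows no slope (Pearson r -0.0024), and the marked genes are the 10 named in the same direction and the 6 in opposite directions.

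Neither CDK4 nor CDK6, CCND1, CCND3, CCNE1 or RB1 was called in the same direction in both lines. Guides against CDK4 were rare: in Hep3B they had 0 counts in both Abemaciclib libraries and 2.64 and 1.96 CPM under Palbociclib, against 3.34 and 3.8 in vehicle, at least 29.6-fold higher under Palbociclib when a floor of 3 counts over the group was set. In SNU-398 CDK4 had 0.322 and 0.127 CPM under Abemaciclib and 0 and 0.41 under Palbociclib, and the test did not pass (adjusted p = 0.74). CDK6 guides were abundant, at 376 and 374 CPM under Abemaciclib, 465 and 468 under Palbociclib and 527 and 549.5 in vehicle in Hep3B. The CDK6 difference there was 0.20 ± 0.03 (edgeR adjusted p = 1.1e-09), but 1 guide was higher and 1 lower, NormZ was -0.47, and without the most abundant guide it turned to -0.22. In SNU-398 CDK6 had 462 and 465 CPM under Abemaciclib and 479 and 456 under Palbociclib, and the 95% CI of the difference ran from -0.03 to 0.10.

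CCND1, cyclin D1, had 4.78 and 5.65 CPM under Abemaciclib, 14.1 and 14.6 under Palbociclib and 18.4 and 20.5 in vehicle in Hep3B. Although the sum gave 1.37 ± 0.17, 2 of its guides were higher and 2 lower, and the difference did not pass without the most abundant guide (0.30, adjusted p = 0.28). In SNU-398 CCND1 stood at -0.31 ± 0.11 (adjusted p = 0.024), a call lost without Abemaciclib replicate 2 (-0.17, adjusted p = 0.34) or Palbociclib replicate 2 (-0.18, adjusted p = 0.30). CCND3, cyclin D3, stood at 0.12 (95% CI -0.12 to 0.37) in Hep3B and at -0.44 ± 0.12 in SNU-398, where the call was lost without Palbociclib replicate 2 (-0.37, adjusted p = 0.051) and the sign turned without the most abundant guide (0.16). RB1 had 9.14 and 8.2 CPM under Abemaciclib and 6.12 and 6.25 under Palbociclib in Hep3B, where 1 guide was lower and 1 higher, and 17.4 and 16.3 under Abemaciclib and 18.9 and 15.02 under Palbociclib in SNU-398. Its difference was -0.61 ± 0.21 in Hep3B, with adjusted p = 0.079 without Abemaciclib replicate 1 and a value of 1.49 without its most abundant guide, and 0.04 (95% CI -0.25 to 0.32) in SNU-398. CCNE1, cyclin E1, had 1.07 and 0.309 CPM under Abemaciclib and 2.32 and 4.29 under Palbociclib in Hep3B and 13.9 and 14.7 under Abemaciclib and 14.4 and 14.5 under Palbociclib in SNU-398, a difference of 1.90 ± 0.42 from 1 guide in Hep3B and of 0.04 (95% CI -0.30 to 0.37) in SNU-398. CDK2 and CDKN1A had at most 0.15 CPM in every inhibitor library of Hep3B and did not pass the test in SNU-398 (-1.47 with adjusted p = 0.061, and 0.58 with 0.12).

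Of the list of the CDK4/6, cyclin D and RB axis, 30 members were tested in Hep3B, of which 10 were lower and 13 higher under Palbociclib (median log2 difference 0.20, against 0.00 over all genes). In SNU-398, 10 of 31 were lower and 2 higher (median -0.06, against -0.01). The shares called over all genes were 34.4% lower and 33.2% higher in Hep3B, and 20.8% and 19.2% in SNU-398. E2F3, a transcription factor that RB1 holds back, had 673 and 691 CPM under Abemaciclib and 549.7 and 582 under Palbociclib in Hep3B (-0.38 ± 0.03), and RBL1, a relative of RB1, had 135 and 132 CPM under Abemaciclib and 76.97 and 74.3 under Palbociclib (-0.93 ± 0.06), with 99.5% and 98.0% of their counts in 1 guide. The INK4 genes CDKN2C and CDKN2D were its only supported members, both in SNU-398, and were picked out after their values were seen. CDKN2C had 129 and 120.0 CPM under Abemaciclib, 103 and 104 under Palbociclib and 125 and 130.2 in vehicle (-0.25 ± 0.06, NormZ -2.89, edgeR adjusted p = 3.0e-04). CDKN2D had 112 and 106 CPM, then 89.9 and 92.7, then 121 and 117 in these groups (-0.24 ± 0.05, NormZ -2.96, edgeR adjusted p = 2.3e-04). For both, the Palbociclib libraries lay below every Abemaciclib and vehicle library, and for both one guide held most of the counts. In Hep3B, CDKN2C was at -0.12 ± 0.05 and CDKN2D at 0.20 ± 0.05. Guides of CDKN2A, also an INK4 gene, disagreed in Hep3B, with the most abundant called at -1.94 and another at 7.40. In SNU-398 the most abundant CDKN2A guide was not called (0.13), and another was called at -3.33.

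Kinases that Abemaciclib is known to bind beyond CDK4 and CDK6 were compared as a list of 18 genes. All genes tested had 34.4% lower and 33.2% higher in Hep3B, and 20.8% and 19.2% in SNU-398. In Hep3B 8 of the list were lower and 5 higher under Palbociclib (median -0.24), and in SNU-398 2 were lower and 2 higher (median -0.04). PIM2, a survival kinase, was its only supported member: in Hep3B it had 139.9 and 134 CPM under Abemaciclib, 90.1 and 95.6 under Palbociclib and 92.4 and 99.7 in vehicle, and 4 of 4 guides were lower (-0.68 ± 0.06). In SNU-398 PIM2 stood at 0.07 (95% CI -0.04 to 0.19). CDK9, the kinase of transcription elongation, had 5.52 and 6.34 CPM under Abemaciclib and 5.91 and 8.22 under Palbociclib in Hep3B, both far under the 40.1 and 33.7 of vehicle. The difference did not pass there (0.12, 95% CI -0.22 to 0.46), with 1 guide lower and 2 higher, nor in SNU-398 at 39.6 and 44.01 CPM under Abemaciclib and 41.8 and 42.3 under Palbociclib (0.03, 95% CI -0.14 to 0.21). CDK7, the CDK-activating kinase, had 0.659 and 0.773 CPM under Abemaciclib and 6.44 and 3.75 under Palbociclib in Hep3B from 1 called guide, whereas in SNU-398 both Palbociclib libraries had 0 counts and Abemaciclib had 0.564 and 0.887 CPM, at least 8.42-fold higher. CDK11A, whose guides may also cut its near-identical copy CDK11B, had 3.71 and 3.87 CPM under Abemaciclib and 0.106 and 0.714 under Palbociclib in Hep3B, from 1 called guide. The log2 difference there was -3.57 ± 0.45, and without that guide it turned to 5.99, with 0 counts of the other guides in both Abemaciclib libraries. In SNU-398 it had 10.9 and 9.12 CPM under Abemaciclib and 13.5 and 12.1 under Palbociclib (0.37 ± 0.15, edgeR adjusted p = 0.049), a call lost without Abemaciclib replicate 2 (0.26, adjusted p = 0.28), Palbociclib replicate 1 (0.27, adjusted p = 0.31) or Palbociclib replicate 2 (0.44, adjusted p = 0.061). Among the 19 tested kinases and cyclins of transcription, 3 were lower and 10 higher in Hep3B, and 7 were lower and 2 higher in SNU-398. These counts stand beside the same shares over all genes. CCNK, the cyclin of CDK12 and CDK13, was higher in both lines (0.80 ± 0.09 and 0.50 ± 0.12), with 1 guide higher and 1 lower in SNU-398.

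Among genes that handle drugs, ABCB1, the efflux pump P-glycoprotein, had 173 and 187 CPM under Abemaciclib and 175 and 175 under Palbociclib in Hep3B, and 153 and 145 under Abemaciclib and 163 and 159 under Palbociclib in SNU-398 (-0.15 ± 0.04 and 0.13 ± 0.05). The first call was lost without Abemaciclib replicate 2 (-0.11, adjusted p = 0.066), and the second without Abemaciclib replicate 2 (0.09, adjusted p = 0.21) or Palbociclib replicate 1 (0.10, adjusted p = 0.20). Without its most abundant guide, the ABCB1 difference turned sign in both lines, to 0.22 in Hep3B and -0.069 in SNU-398. CYP3A4, an oxidase known to metabolise both inhibitors, had 21.2 and 25.1 CPM under Abemaciclib and 33.05 and 26.4 under Palbociclib in Hep3B (0.28 ± 0.12, adjusted p = 0.032, lost without Abemaciclib replicate 1 at 0.15 and without Palbociclib replicate 1 at 0.09) and a 95% CI of -0.30 to 0.40 in SNU-398. The CYP3A4 values rest on 1 guide in each line. In edgeR's test of single guides, that guide was not called in Hep3B (0.22, adjusted p = 0.11). ABCG2 had under 1 CPM in every inhibitor library, with 0 counts under Palbociclib in SNU-398. Of 13 efflux transporters, 7 were lower and 1 higher under Palbociclib in Hep3B, and 1 was lower and 7 higher in SNU-398, none of them supported. Over all genes, 34.4% were lower and 33.2% higher in Hep3B, and 20.8% and 19.2% in SNU-398. ABCC1, an exporter of glutathione conjugates, stood at -0.32 ± 0.03 in Hep3B and 0.13 ± 0.03 in SNU-398, but in Hep3B 1 guide held 99.8% of its counts and another was called the other way (3.92). ABCC3, a related exporter, had 8.32 and 7.12 CPM under Abemaciclib, 23.5 and 22.1 under Palbociclib and 26.2 and 26.8 in vehicle in Hep3B (1.44 ± 0.15), from 1 called guide, and did not pass in SNU-398 (95% CI -0.51 to 0.0036). Of 11 drug metabolism genes, 3 were lower and 6 higher in Hep3B, and 3 lower and 2 higher in SNU-398. CYP3A5, a close relative of CYP3A4, had 3.13 and 2.63 CPM under Abemaciclib, 15.3 and 14.5 under Palbociclib and 11.3 and 13.7 in vehicle in Hep3B, with 2 of 3 tested guides higher (2.23 ± 0.20, NormZ 2.13), and did not pass in SNU-398 (95% CI -0.19 to 0.41).

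PSTK, the kinase that prepares the tRNA for selenocysteine, had fewer counts under both inhibitors than in vehicle, and fewest under Abemaciclib. In Hep3B it had 463 and 459 CPM in vehicle, 196 and 189 under Abemaciclib and 278 and 279 under Palbociclib (0.42 ± 0.04, NormZ 3.29, edgeR adjusted p = 6.2e-28), with 3 of 4 guides higher under Palbociclib, and 1 guide held nearly all of the counts. In SNU-398 it had 409.7 and 385 CPM in vehicle, 306 and 297 under Abemaciclib and 319 and 317 under Palbociclib, a difference of 0.10 ± 0.04 (adjusted p = 0.039) that did not pass without Abemaciclib replicate 2 (adjusted p = 0.22) or either Palbociclib library (adjusted p = 0.19 and 0.12). SEPSECS, the next enzyme of that pathway, did not pass the test, with a 95% CI of -0.0049 to 0.27 in Hep3B (adjusted p = 0.083, and 0.049 without Abemaciclib replicate 2) and -0.19 to 0.09 in SNU-398. SEPHS1, a selenophosphate synthetase homologue, was lower under Palbociclib in both lines (-3.59 ± 0.48 and -1.19 ± 0.21). Of the 12 selenocysteine genes, 4 were lower and 3 higher in Hep3B, and 3 lower and 5 higher in SNU-398. All genes tested had 34.4% lower and 33.2% higher in Hep3B, and 20.8% and 19.2% in SNU-398.

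Among genes that hold back ferroptosis, an iron-dependent death by lipid peroxidation, 8 of 16 were higher and 2 lower under Palbociclib in Hep3B (median 0.31), and 6 were higher and 1 lower in SNU-398 (median 0.08). Among drivers of ferroptosis, 3 of 15 were higher and 7 lower in Hep3B (median -0.13), and 1 was higher and 5 lower in SNU-398 (median -0.06). The shares over all genes were 34.4% lower and 33.2% higher in Hep3B, and 20.8% and 19.2% in SNU-398. GCLC, the rate-limiting enzyme of glutathione synthesis, had 294 and 309 CPM under Abemaciclib and 402 and 395 under Palbociclib in Hep3B, and 329 and 317 under Abemaciclib and 358 and 339 under Palbociclib in SNU-398. It was higher by 0.30 ± 0.03 (3 of 4 guides) and 0.13 ± 0.04 (2 of 4 guides), and its levels stayed under those of vehicle in both lines (487 and 476 CPM in Hep3B, 449 and 442 in SNU-398). TFRC, the transferrin receptor that brings in iron, was lower under Palbociclib, at -1.74 ± 0.11 in Hep3B and -0.69 ± 0.11 in SNU-398. KEAP1, the inhibitor of NRF2, was supported in SNU-398, where it had 135 and 131 CPM under Abemaciclib, 99.6 and 92.9 under Palbociclib and 95.3 and 101 in vehicle (-0.44 ± 0.06), but stood at -0.0042 (95% CI -0.15 to 0.14) in Hep3B. SOD2, the superoxide dismutase of mitochondria, had 72.1 and 68.4 CPM under Abemaciclib, 104 and 98.4 under Palbociclib and 148 and 154 in vehicle in Hep3B (0.41 ± 0.06, NormZ 1.11), and differed by 0.04 (95% CI -0.11 to 0.19) in SNU-398. CCS, the copper chaperone of another superoxide dismutase, went against SOD2 in Hep3B, at 21.2 and 24.9 CPM under Abemaciclib and 7.07 and 3.39 under Palbociclib (-2.17 ± 0.21). Of 22 genes of superoxide and peroxide removal, 7 were lower and 9 higher in Hep3B, and 4 lower and 1 higher in SNU-398, and of 46 peroxisome genes 13 were lower and 21 higher in Hep3B, and 9 lower and 5 higher in SNU-398. CRAT, carnitine acetyltransferase, was the supported peroxisome gene, in SNU-398, where 264 and 270.5 CPM were left under Abemaciclib and 209 and 235 under Palbociclib (-0.25 ± 0.04). In Hep3B its sign was the opposite (0.25 ± 0.04).

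In lysosome genes, LIPA and VPS18 were higher under Palbociclib in both lines, and were supported in Hep3B. LIPA, the lysosomal acid lipase, had 24.3 and 21.6 CPM under Abemaciclib and 63.98 and 66.98 under Palbociclib in Hep3B, and 43.6 and 45.7 under Abemaciclib and 60.8 and 57.3 under Palbociclib in SNU-398 (1.38 ± 0.08 and 0.43 ± 0.08). VPS18, a subunit of the HOPS tether for fusion with lysosomes, had 0.576 and 0.619 CPM under Abemaciclib, 4.43 and 8.22 under Palbociclib and 7.41 and 8.35 in vehicle in Hep3B, and 9.59 and 9.75 under Abemaciclib and 16.4 and 15.3 under Palbociclib in SNU-398 (3.23 ± 0.35 and 0.74 ± 0.15). Other lysosome genes had guides lower under Palbociclib in Hep3B. LAMP2 guides were called at -1.17 and -1.46. The most abundant VPS41 guide was called at -1.16, and another at 0.93. Of the 31 lysosome genes, 11 were lower and 12 higher in Hep3B, and 6 lower and 8 higher in SNU-398. Of 22 V-ATPase genes, 7 were lower and 6 higher in Hep3B, and 5 lower and 6 higher in SNU-398. Both lists stand beside 34.4% lower and 33.2% higher over all genes in Hep3B, and 20.8% and 19.2% in SNU-398.

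The counts for signalling lists stand beside 34.4% lower and 33.2% higher over all genes in Hep3B and 20.8% and 19.2% in SNU-398. AKT1, a kinase of growth and survival signalling, was supported in SNU-398, with 38.7 and 36.5 CPM under Abemaciclib, 21.2 and 21.6 under Palbociclib and 40.6 and 43.1 in vehicle (-0.80 ± 0.09), and stood at -0.02 (95% CI -0.16 to 0.11) in Hep3B. Of 25 genes of PI3K, AKT and mTOR signalling, 7 were lower and 9 higher in Hep3B, and 7 lower and 4 higher in SNU-398. Of 27 genes of receptor, RAS and MAPK signalling, 5 were lower and 14 higher in Hep3B, and 5 lower and 6 higher in SNU-398, and ERBB3, a receptor that signals to PI3K, was higher in both (0.88 ± 0.08 and 0.20 ± 0.06). The Hippo list had 7 lower and 4 higher of 18 in Hep3B and 1 lower and 5 higher in SNU-398, and TEAD4, a partner of YAP, stood at -0.84 ± 0.07 in Hep3B. TAOK1 of the same list went the other way there, with guides called at 1.49 and 1.02. In the p53 list 3 of 11 were lower and 3 higher in each line, with BAX, which triggers apoptosis at mitochondria, at -1.13 ± 0.11 in Hep3B. ZMAT3 guides disagreed there: the most abundant was called at 1.02 and another at -1.33. TP53BP1, a DNA double-strand break repair factor, was the supported member, in Hep3B, where it had 23.97 and 19.5 CPM under Abemaciclib, 1.9 and 4.55 under Palbociclib and 8.72 and 8.76 in vehicle, and 2 of 2 tested guides were lower (-2.99 ± 0.21, NormZ -3.16). In SNU-398 it did not pass (95% CI 0.04 to 0.57, edgeR adjusted p = 0.06). Of 20 mitotic and checkpoint kinases and cyclins, 7 were lower and 6 higher in Hep3B, and 4 lower and 5 higher in SNU-398, with NEK2, a centrosomal kinase, at -1.57 ± 0.10 in Hep3B. The more abundant guide of NEK2 there stood at -1.67, and the other at 0.09 was not called. Of 9 genes of DREAM, MuvB and FOXM1, 4 were lower and 5 higher in Hep3B, and 2 and 2 in SNU-398, and MYBL2, a partner of MuvB, stood at -0.37 ± 0.05 in Hep3B. The MYBL2 guides disagreed there: the most abundant stood at -0.51, and others were called at 0.95 and -5.51. The most abundant FOXM1 guide was called higher in Hep3B (5.39), at 0.0824 and 0.155 CPM under Abemaciclib and 5.49 and 5.18 under Palbociclib.

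In the neddylation and cullin list, to which KLHL9 belongs, 10 of 26 were lower and 2 higher in Hep3B (34.4% and 33.2% over all genes), and 4 lower and 7 higher in SNU-398 (20.8% and 19.2%). CUL5, a cullin scaffold, was supported in SNU-398, with 12.7 and 15.1 CPM under Abemaciclib, 31.8 and 31 under Palbociclib and 13.1 and 14.4 in vehicle, and 3 of 4 guides higher (1.21 ± 0.13). WDR82, a subunit of SET1 histone methyltransferase complexes, had 0.165 and 0.464 CPM under Abemaciclib, 5.49 and 3.21 under Palbociclib and 22.5 and 22.98 in vehicle in Hep3B, whereas in SNU-398 it had 9.59 and 9.56 CPM, then 4.09 and 4.37, then 17.7 and 18 in these groups. Its counts were below vehicle under both inhibitors in both lines, with the lower level under Abemaciclib in Hep3B (3.93 ± 0.39) and under Palbociclib in SNU-398 (-1.16 ± 0.18), though NormZ was 2.03 and -1.56. Of 15 COMPASS genes, 3 were lower and 8 higher in Hep3B, and 6 lower and 4 higher in SNU-398. MEN1, whose product menin joins MLL complexes, was the supported one, in SNU-398, with 309 and 343 CPM under Abemaciclib, 249 and 262 under Palbociclib and 329 and 329.7 in vehicle (-0.33 ± 0.05), and did not pass in Hep3B (95% CI -0.15 to -0.0023, edgeR adjusted p = 0.063).

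Genes that nearly all cells need had fewer counts than at T0 under both inhibitors, and to a lesser degree in vehicle. In Hep3B the median log2 change since T0 was -1.50 under Abemaciclib and -0.98 under Palbociclib over 52 ribosomal protein genes, -1.54 and -1.32 over 30 proteasome genes, and -0.71 and -0.47 over 297 olfactory receptor genes. In SNU-398 the order was the other way, with -0.40 under Abemaciclib and -0.58 under Palbociclib over 50 ribosomal protein genes, -0.31 and -0.53 over 29 proteasome genes, and -0.03 and -0.13 over 301 olfactory receptor genes. In vehicle these medians, in the same order of lists, were -0.46, -0.66 and -0.16 in Hep3B, and -0.24, -0.12 and -0.06 in SNU-398. Vehicle and both inhibitors share the T0 libraries. In the direct contrast, 24 of 57 ribosomal protein genes were higher and 11 lower under Palbociclib in Hep3B, and 5 of 59 were higher and 16 lower in SNU-398. For the proteasome, 15 of 33 were higher and 5 lower in Hep3B, and 3 were higher and 11 lower in SNU-398. For the spliceosome core the counts were 15 of 30 higher and 10 lower, and 5 higher and 8 lower. These lists stand beside 33.2% higher and 34.4% lower over all genes in Hep3B, and 19.2% and 20.8% in SNU-398. SNRPD1, an Sm core protein, was supported in SNU-398 with 3 of 3 tested guides lower under Palbociclib (19.2 and 20.6 CPM under Abemaciclib, 9.64 and 8.94 under Palbociclib, 20.8 and 19.6 in vehicle, -1.07 ± 0.13), and was higher in Hep3B from 1 guide (1.05 ± 0.16). RPS21, of the small ribosomal subunit, had 162 and 164 CPM under Abemaciclib, 244 and 245 under Palbociclib and 317 and 316 in vehicle in Hep3B, and 4 of 4 guides were higher (0.48 ± 0.04). RPL8, of the large subunit, had 22.1 and 20.5 CPM under Abemaciclib and 12.4 and 13.7 under Palbociclib in SNU-398 (-0.70 ± 0.13), but 1.48 and 1.39 CPM under Abemaciclib and 4.75 and 5.27 under Palbociclib in Hep3B (1.66 ± 0.28).

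**Figure D5:**
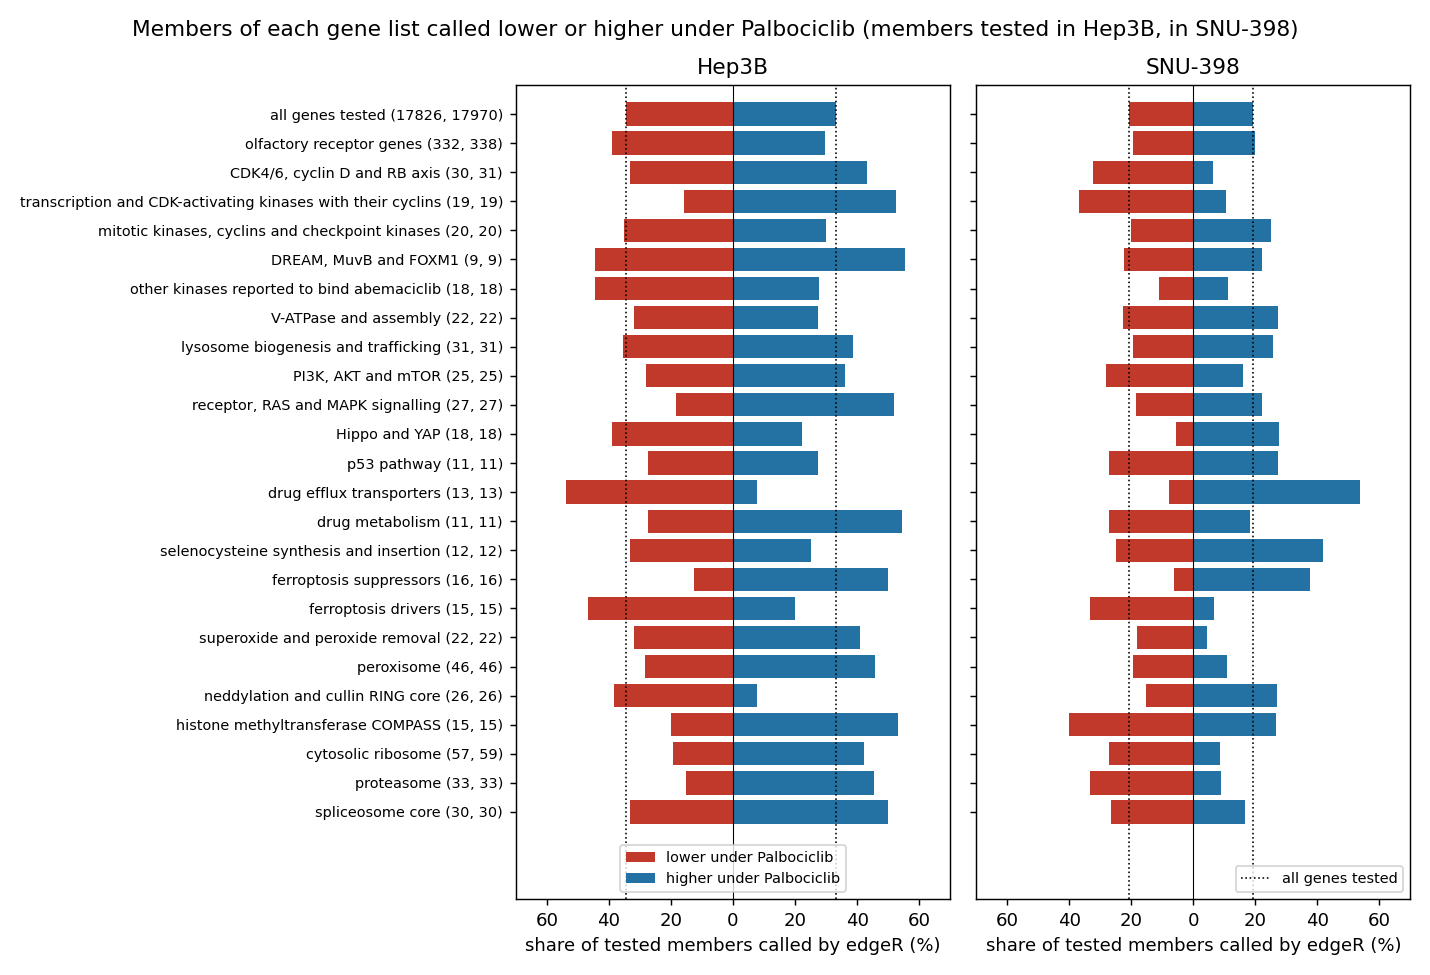
Share of the tested members of each of 23 gene lists called lower (left bars) or higher (right bars) under Palbociclib by edgeR in Hep3B and SNU-398, in percent, with the number of members tested in each line in parentheses. Dotted lines mark all genes tested (34.4% and 33.2% in Hep3B, 20.8% and 19.2% in SNU-398), against which the bars are read. Of drug efflux transporters, 7 were lower and 1 higher of 13 in Hep3B, and 1 and 7 in SNU-398.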

How the data were processed

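Guide counts were analysed for the 8 libraries of Palbociclib and Abemaciclib, with the other libraries of each line entering the filter, the scaling and the estimate of the spread. Levels in vehicle and at T0 are given beside the results. The authors deposited raw counts per guide, 1 table per line, made with Bowtie2 (version not given in the sources used here) and not normalized. From 91.1% to 98.1% of the counts in the 8 libraries were even, and halving them was tried as an alternative. Guides under 26 date-like gene names in each table (100 and 97 guides) were left out.

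Counts were summed per gene and tested with edgeR 4.0.16 in R 4.3.3 (TMM scaling, filterByExpr, quasi-likelihood test, Benjamini-Hochberg adjustment over all genes, threshold 0.05) in one fit per line of 16 libraries in Hep3B and 15 in SNU-398. SNU-398 Erastin replicate 2 was left out, since it held 95.5% of the 286 guides kept only by the Hep3B vehicle. The SNU-398 libraries of Abemaciclib, with 65.7% and 50.7% of these guides, stayed in the fits. NormZ followed the steps of DrugZ with Abemaciclib in place of the control (counts scaled to 10000000, pseudocount 5, windows of 1000 guides, two-sided normal p). CPM values are counts scaled to the library total. Same-numbered libraries were not paired in the edgeR fits (correlation of deviations -0.0061 in Hep3B and 0.025 in SNU-398). NormZ set each Palbociclib library against the Abemaciclib library of the same number.

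Named genes were, per line and direction, the 6 supported genes with the largest NormZ, up to 10 and 6 genes shared by the lines in the same and in opposite directions, 19 genes of the pathways, and from each of 23 gene lists the members with the smallest adjusted p, of which a part is printed. Supported list members were added after their values were seen. The inhibitors, genes and lists were chosen with earlier results of these data known. Scripts were tested on simulated data. Alternatives covered scaling, filters, guides, libraries, the replicate number as a block, and DESeq2 1.42.0.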

Additional observations from a re-analysis of the deposited data

Results flagged for a closer look

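The difference between the inhibitors was not the same in the lines for 10898 genes, by the interaction term of a joint edgeR fit at an adjusted p under 0.05. Values here are the log2 difference, Palbociclib minus Abemaciclib, in Hep3B less that in SNU-398, for named genes past that test. With the inhibitors in opposite order in the lines, it was 3.38 for C2orf81, -1.56 for OR5H14, -1.14 for RC3H2, 3.58 for DMBT1, -1.28 for OR51G2 and -3.06 for CTR9. Among the leading genes of Hep3B, it was -2.88 for NAPRT1, -1.72 for UBE2C, -1.49 for KLHL9, -2.13 for POFUT1, -1.67 for RIIAD1 and -1.96 for GK2. On the other side of Hep3B, DDX21 had 5.03, GSDMA 3.05, RALYL 2.75, TMEM126B 2.66, SSTR2 0.31 and OTUD1 1.94.

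For the leading genes of SNU-398, the difference of the lines was 1.44 for EZH1, 0.94 for FBXL18, 1.06 for BEST1, 0.59 for ING1, 0.21 for CSRP2BP, -0.35 for NPR3, 0.32 for VPS54, -0.65 for ATP6V1H and -0.93 for MISP. Genes that moved the same way in both lines differed in size, by -0.83 for TPD52L3, 0.80 for TMEM236, 0.95 for TM9SF1, -1.09 for TOM1L2, 0.54 for TRUB2, -0.39 for FIGF, -0.48 for PAX8 and -0.78 for C11orf16. Among genes of the CDK4/6 axis and transcription, it was 0.19 for CDK6, 1.72 for CCND1, 0.59 for CCND3, 1.86 for CCNE1, -0.62 for RB1 and -3.93 for CDK11A, whose Hep3B difference turned to 5.99 without its most abundant guide. It was 0.35 for PSTK, 0.40 for SOD2, 5.13 for WDR82 and -0.25 for ABCB1. Groups of 2 libraries are too small to single out a library.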

How the results depend on the processing

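Under a threshold of 0.5 on the log2 difference (glmTreat), 2970 genes were lower and 3361 higher in Hep3B, 901 and 439 in SNU-398, with 73 supported there. There, 240 genes were called in both lines in one direction and 296 in opposite directions, and 0 and 1 were supported in both. Without the most abundant guide of each gene, 3610 were lower in Hep3B with 166 supported, 4344 were lower and 2236 higher in SNU-398 with 119 supported, 1498 and 1522 were called in both lines, and 0 were supported in opposite directions. That setting turned the sign of TOM1L2 (0.16), OR51G2 (0.037), CDK6 (-0.22), RB1 (1.49), CDK9 (-0.66), CDK11A (5.99) and ABCB1 (0.22) in Hep3B and of CCND3 (0.16), CCNE1 (-6.72) and ABCB1 (-0.069) in SNU-398. With Erastin replicate 2 in the fit, SNU-398 had 1718 lower, 1407 higher and 124 supported, 923 and 1127 genes were called in both lines, and 1 was supported in opposite directions. With guides of a mean of at least 30 counts, 0 genes were supported in both lines in one direction, and 226 passed NormZ in Hep3B. The cause of these shifts was not tested.

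Leaving out 1 library gave 5501 to 5831 lower, 5320 to 5598 higher and 273 to 279 supported genes in Hep3B, and 2621 to 2960, 2281 to 2710 and 173 to 188 in SNU-398, the lowest count of higher genes being without Palbociclib replicate 1. Called in both lines were then 1625 to 2227 in one direction and 1744 to 2401 in opposite ones, with 0 to 1 and 1 to 2 supported. NormZ was instead run without the same-numbered library of both inhibitors, which left 1 library of each, so its counts are not given.

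With the replicate number as a block, 6115 genes were lower and 5902 higher in Hep3B (277 supported), 3781 and 3545 in SNU-398 (212 supported), 2398 and 2597 in both lines, 1 and 2 supported in both, and 10947 differed between lines. The block changed no call among the 57 genes named by rank, by both lines or by pathway, list members not included. Over those genes and all settings, 1806 values kept direction and side of the threshold, 100 lost a call, 21 gained one and 10 turned. CDK2, CDKN1A and ABCG2 had almost no counts in the inhibitor libraries of Hep3B, and CDK2 and ABCG2 almost none in vehicle, so a difference was not detectable there.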
